A study of Mus musculus with 7 samples.

Results

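Cadm and Dscam adhesion molecules were followed with their Ncam and L1 relatives in optic nerves of mice that lack fatty acid synthase in the oligodendrocyte (OL) lineage. The 10 genes are Cadm1, Cadm2, Cadm3, Cadm4, Dscam, Dscaml1, Ncam1, Ncam2, L1cam and Chl1, taken by gene symbol from a table of 22880 genes. As a set they were chosen by name with the measured FPKM differences between these same 7 samples already known, so the values between genotypes are given as a description and support nothing. All 10 passed the filter on low values and all had values in each of the 7 samples.

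The proteins are cell surface receptors with immunoglobulin domains outside the cell, a single stretch through the membrane in most forms, and a short tail that reaches scaffold or cytoskeletal proteins inside. They bind copies of themselves or close relatives on the facing membrane, and by this means sort axons, keep branches of the same neuron apart, and hold glial membranes to axons. In white matter the Cadm proteins, also called nectin-like or SynCAM proteins, lie along the contact of axon and myelin sheath, with Cadm4 known from the glial side.

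Control mice (CT, n = 4) are labelled Fasn lox/lox with no Cre named, and conditional mutants (cMU, n = 3) are labelled with the same alleles and olig2cre, in which Cre is driven by regulatory elements of Olig2 and so acts in the OL lineage. Mice of both genotypes are labelled C57Bl/6, were 14 days old (P14), and both optic nerves of 1 mouse formed 1 sample. The methods of the study also allow controls with 1 floxed and 1 wild-type allele in developmental work, which the labels of these samples do not name. The floxed allele came from a mixed line of 129X1/SvJ, C57BL/6 and DBA, and the mice were of either sex, which the labels do not give per sample. Cell bodies of the axons lie in the retina, outside the dissected nerve, and the nerve holds OLs, their progenitors (OPCs), astrocytes, microglia, vessels and meninges.

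Values are FPKM, which are read numbers scaled for the length of the gene and the size of the library, and they can therefore be set side by side between genes. Sequencing depth, recovered from the steps of the low values, ran from 27451662 to 43450878 reads per sample. Between 284 reads (L1cam) and 23681 reads (Cadm4) stood behind single values of the members. Fasn, which makes fatty acids and is the gene removed by Cre, was at 210.3, 169.1, 211.1 and 228.3 FPKM in the CT samples and 69.3, 50.52 and 48.98 in cMU. The log2 fold change of Fasn was -1.86 ± 0.138 (SE), with adjusted p = 0.00312 in limma, and the genotypes did not overlap. Cells in which Cre does not act keep an intact gene, and in a whole nerve fewer cells of a type and less RNA per cell cannot be told apart.

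The sequence just before the transcription start is shown for 3 members: Cadm4, the most abundant member, Dscam, of the family with the lowest cMU to CT ratio, and Chl1, the member with the highest log2 fold change. Each runs 5′ to 3′ on the strand of its gene over the 250 bases before the start, from RefSeq on GRCm38.p6, in which 7 of the 10 members were matched. Cadm4 covers chr7:24481773-24482022 on the plus strand, Dscam covers chr16:97170736-97170985 on the minus strand, and Chl1 covers chr6:103510626-103510875 on the plus strand. Capitals mark the Sox motif ACAAAG or ACAATG, the E box CANNTG and the GC box GGGCGG, each searched on both strands.
Cadm4: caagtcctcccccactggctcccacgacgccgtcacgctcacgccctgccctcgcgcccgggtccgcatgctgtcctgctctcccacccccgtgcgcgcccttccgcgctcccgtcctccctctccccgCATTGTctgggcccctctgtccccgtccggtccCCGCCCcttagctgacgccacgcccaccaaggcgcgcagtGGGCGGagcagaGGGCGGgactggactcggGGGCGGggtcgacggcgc
Dscam: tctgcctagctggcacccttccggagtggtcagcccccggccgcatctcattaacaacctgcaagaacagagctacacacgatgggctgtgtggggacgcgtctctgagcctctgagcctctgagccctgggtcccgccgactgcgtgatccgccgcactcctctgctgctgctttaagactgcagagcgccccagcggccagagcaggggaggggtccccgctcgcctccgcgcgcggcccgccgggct
Chl1: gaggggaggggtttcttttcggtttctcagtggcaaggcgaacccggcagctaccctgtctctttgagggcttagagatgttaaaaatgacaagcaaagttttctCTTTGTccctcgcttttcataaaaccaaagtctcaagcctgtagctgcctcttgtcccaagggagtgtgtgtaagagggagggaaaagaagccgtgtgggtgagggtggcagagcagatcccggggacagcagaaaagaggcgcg
Cadm4 has 4 GC boxes and 1 Sox match, which starts at -121 from the start site. Chl1 has 1 Sox match at -145, and Dscam has none of the 3 motifs in this window. Among 32851 promoters of the same length, 25.2% hold the Sox motif, 32.7% the GC box and 66.2% the E box. G and C make up 75.2% of the Cadm4 window, 68.0% of the Dscam window and 52.4% of the Chl1 window, with 30, 21 and 8 CG dinucleotides. A match describes letters only, and none of these windows was measured for binding.

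In CT nerves the 10 levels spanned from 246 FPKM for Cadm4 to 4.45 FPKM for Chl1. Cadm4 took 47.8% ± 1.94 (SD, n = 4) of the summed FPKM of the members and Ncam1 took 23.4% ± 0.741. The order from the highest level to the lowest was Cadm4, Ncam1, Cadm2, Cadm1, Cadm3, Ncam2, Dscam, Dscaml1, L1cam and Chl1. Neighbours in this order had separate CT ranges except Cadm2 with Cadm1, Dscam with Dscaml1, Dscaml1 with L1cam, and L1cam with Chl1. Ratios of neighbouring CT means ran up to 2.63 for Ncam1 over Cadm2, and Cadm4 lay 2.04-fold above Ncam1. These levels depend on the gene length: with the longest coding transcript of GENCODE M21 in place of the deposited length, 4 of 10 members kept their place. L1cam then moved from 6.32 to 2.15 FPKM and from the ninth place to the last, since its deposited length was 1747 bases against 5126 bases for that transcript. By the deposited FPKM in cMU nerves, the means of Dscam (6.08) and Dscaml1 (4.90) were the last in order, below L1cam (7.63) and Chl1 (6.62), and that of Cadm1 stood above Cadm2. The cMU ranges of Dscam overlapped those of L1cam and Chl1, that of Dscaml1 overlapped Chl1, and that of Cadm1 overlapped Cadm2. The place of L1cam rested on cMU sample 3, and with the longest coding transcript as length its cMU level was 2.60, below Dscam (5.22) and Dscaml1 (4.51).

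**Figure D1:**
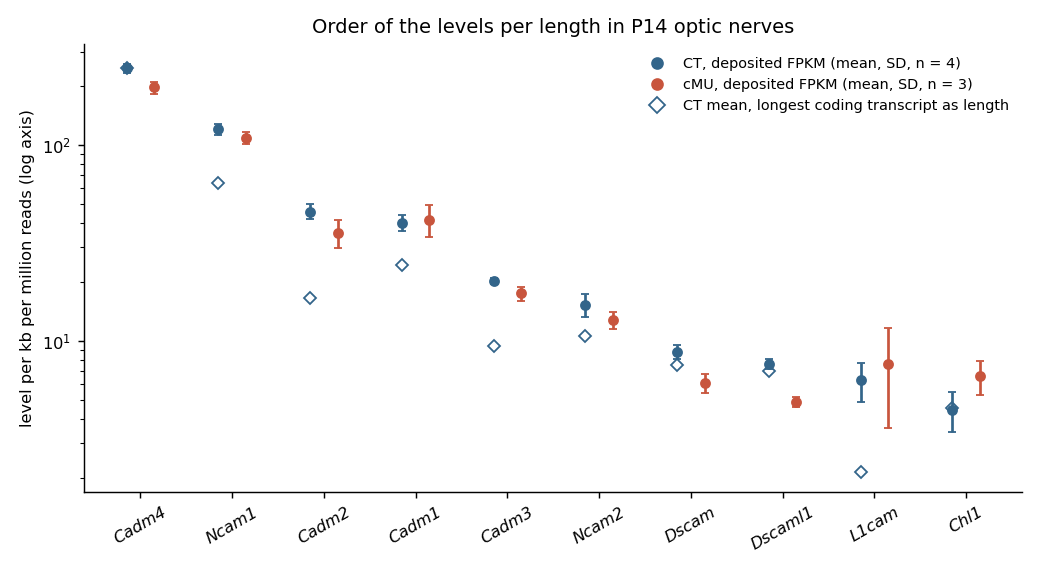
Mean level of each member in CT (blue, n = 4) and cMU (red, n = 3) on a log axis in FPKM, with SD bars, and the CT mean recomputed with the longest coding transcript as length (open diamonds). Cadm4 (246 FPKM in CT) and Ncam1 (120.5) lead under either length, while L1cam drops from 6.32 to 2.15.

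Cadm4 lies at chr7:24482023-24504539 on the plus strand of GRCm38 and encodes the glial Cadm protein that binds Cadm partners on axons. Its FPKM was 233.6, 239.4, 252.3 and 259.5 in CT and 189.2, 213 and 187.8 in cMU. Every cMU sample was below every CT sample, and the cMU mean was 79.9% of the CT mean. The log2 fold change was -0.32 ± 0.0695 (SE).

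Cadm2, at chr16:66655421-67620908 on the minus strand, encodes a partner found on axons of the central nervous system. It was at 50.6, 42.85, 47.58 and 42.01 FPKM in CT and at 28.91, 38.71 and 38.94 in cMU. The groups were separate by a small gap, cMU sample 1 lay well below the other cMU samples, and the log2 fold change was -0.37 ± 0.115.

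Cadm3, at chr1:173333258-173367695 on the minus strand, encodes an axonal member that binds Cadm4. Its values were 20.4, 19.93, 20.97 and 19.43 FPKM in CT and 15.84, 17.98 and 18.61 in cMU. The groups did not overlap, and the log2 fold change of -0.20 ± 0.0731 was the smallest in size among the members with separate groups. In the table Cadm3 overlaps Ackr1, a chemokine receptor gene on the same strand, and Aim2, a DNA sensor gene on the other strand. Ackr1 was at 4.78 ± 0.744 FPKM in CT and 5.43 ± 2.47 in cMU, and Aim2 at 2.78 ± 0.0722 and 2.89 ± 0.479, both with overlapping genotypes.

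Cadm1, at chr9:47530173-47857637 on the plus strand, is the member of the family best known from synapses. It was at 45.2, 36.9, 38.66 and 39.88 FPKM in CT and at 32.94, 43.76 and 47.92 in cMU, so that cMU samples lay both below and above the whole CT range. Its log2 fold change was 0.03 ± 0.125, with a 95% interval from -0.25 to 0.32, and its sign depended on the scaling of the samples. The 4 Cadm genes summed to 352 ± 10.1 FPKM in CT and 291 ± 23.3 in cMU, a ratio of 0.827. Cadm4 over Cadm1 within a sample was 5.17 to 6.53 in CT and 3.92 to 5.74 in cMU, which overlap.

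Dscam, at chr16:96592079-97170752 on the minus strand, encodes a receptor by which branches of the same neuron recognise and avoid each other. Its FPKM was 8.959, 8.315, 9.847 and 8.165 in CT and 5.42, 6.054 and 6.761 in cMU. The genotypes were separate, the cMU mean was 68.9% of the CT mean, and the log2 fold change was -0.50 ± 0.101.

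Dscaml1, at chr9:45430293-45753164 on the plus strand, encodes the close relative of Dscam that acts in the same way in other neurons of the retina. It was at 7.422, 7.126, 7.764 and 8.231 FPKM in CT and at 4.609, 5.204 and 4.88 in cMU. No cMU sample reached the CT range, the cMU mean was 64.1% of the CT mean, and the log2 fold change was -0.59 ± 0.0862, the lowest of the 10. Within a sample, Dscaml1 over Dscam was 0.788 to 1.01 in CT and 0.722 to 0.860 in cMU, which overlap. Their sum was 16.5 ± 0.889 FPKM in CT and 10.98 ± 0.842 in cMU, a ratio of 0.667.

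**Figure D2:**
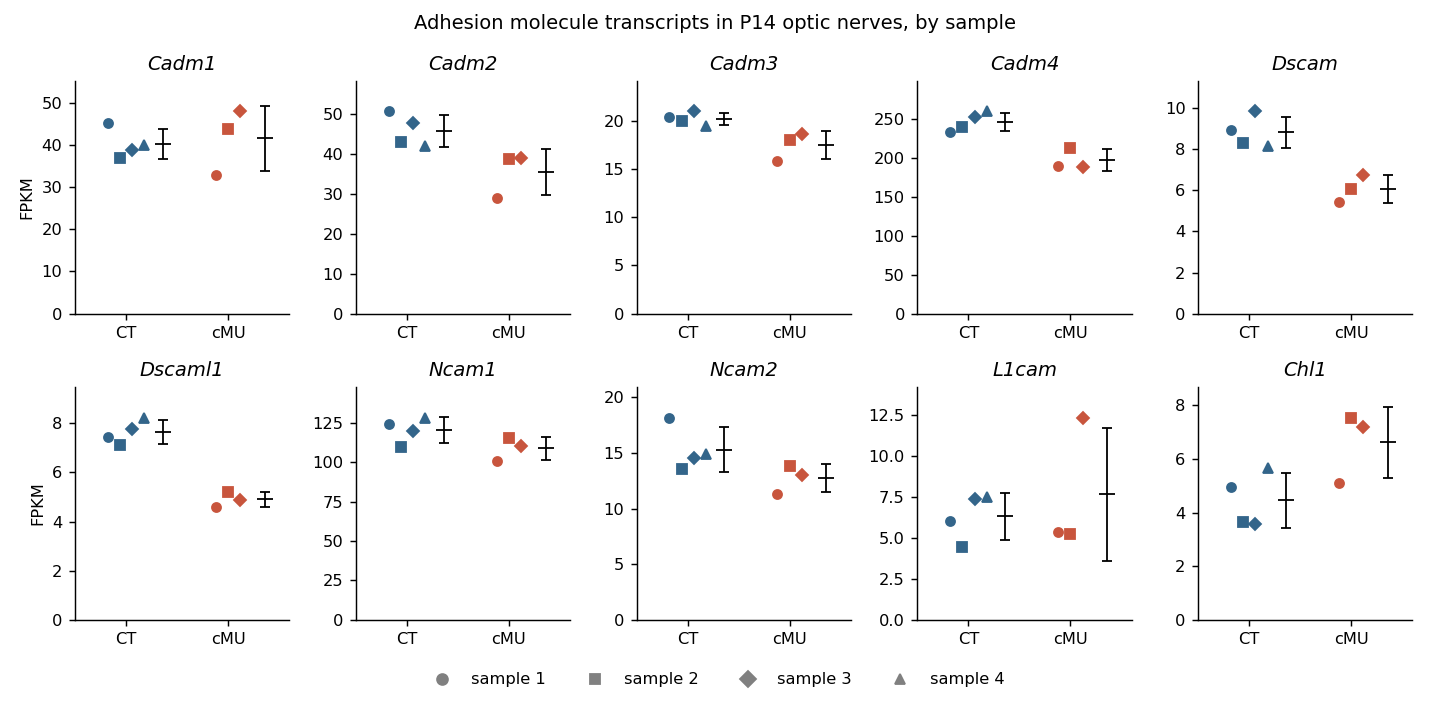
FPKM of the 10 members in each CT (blue) and cMU (red) sample, with the sample number as the marker shape and the mean and SD beside the points; every vertical axis starts at 0. The genotypes are separate for Cadm2, Cadm3, Cadm4, Dscam and Dscaml1, and cMU sample 3 stands far above the rest for L1cam (12.32 FPKM).

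Ncam1, at chr9:49502136-49798925 on the minus strand, encodes the neural cell adhesion molecule, which carries polysialic acid during development. It was at 124.3, 109.5, 119.8 and 128.4 FPKM in CT and at 101, 115.1 and 110.3 in cMU, and both upper cMU samples lay within the CT range. The log2 fold change was -0.15 ± 0.0738. Gm11149, antisense to Ncam1, was listed at 0 in all samples but 1, CT sample 3 (0.0184 FPKM).

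Ncam2, at chr16:81200697-81624285 on the plus strand, encodes a relative of Ncam1 known from olfactory axons. Its values were 18.18, 13.53, 14.53 and 14.86 FPKM in CT and 11.32, 13.81 and 13.05 in cMU, so only cMU sample 2 reached the CT range. The log2 fold change was -0.25 ± 0.111, and the sum of both Ncam genes was 136 ± 9.41 FPKM in CT and 122 ± 8.44 in cMU.

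L1cam, at chrX:73853778-73880834 on the minus strand, encodes a receptor for axon growth and bundling that is anchored by ankyrins. It was at 6.021, 4.411, 7.388 and 7.455 FPKM in CT and at 5.354, 5.229 and 12.32 in cMU. A single sample, cMU 3, set the cMU mean of 7.63 ± 4.06 apart from the CT mean of 6.32 ± 1.43, and the log2 fold change turned from 0.17 ± 0.289 to -0.21 without it. The same sample had the highest summed FPKM of a list of 13 neuron markers, 128 against 74.9 to 92.2 in CT; its part in the L1cam level was not tested.

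Chl1, the close homolog of L1, lies at chr6:103510876-103733035 on the plus strand and is made by neurons and glia. Its FPKM was 4.938, 3.631, 3.574 and 5.662 in CT and 5.113, 7.542 and 7.19 in cMU, where sample 1 stayed inside the CT range and the others were above it. At 0.53 ± 0.183 its log2 fold change was the highest of the members. It was not called in limma, and its genotypes overlapped. Of 6 ratios between members taken within each sample, the 1 with separate genotypes was Chl1 over Dscam, at 0.363 to 0.693 in CT and 0.943 to 1.25 in cMU. This ratio joins the member with the highest fold change to a member with one of the lowest, so nothing is read from its separation.

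Across the 10 members 7 had a lower mean log2 level in cMU and 3 a higher one, and 5 had genotypes that did not overlap, all with cMU lower. Over the 13866 genes tested, 8.26% were separate with cMU lower, 12.9% with cMU higher and 21.1% in either direction. The median log2 fold change was -0.23 over the members and 0.05 over all genes tested. Dscaml1, Dscam and Cadm4 were called lower at adjusted p below 0.05 in limma over the whole table, against 1.36% of all genes called lower, 1.26% called higher and 2.62% called in either direction. At an unadjusted p below 0.05 in limma 6 members passed, against 24.4% of all genes. Cadm4 was just inside that threshold at adjusted p = 0.0486 and Cadm2, the next member, outside it at 0.106. None of the 3 was called without CT sample 1, 2 or 3 or without cMU sample 3, and with the replicate number as a block Cadm4 was lost (adjusted p = 0.0674 in limma). Since these genes were chosen with this contrast known, nothing is read from the counts.

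**Figure D3:**
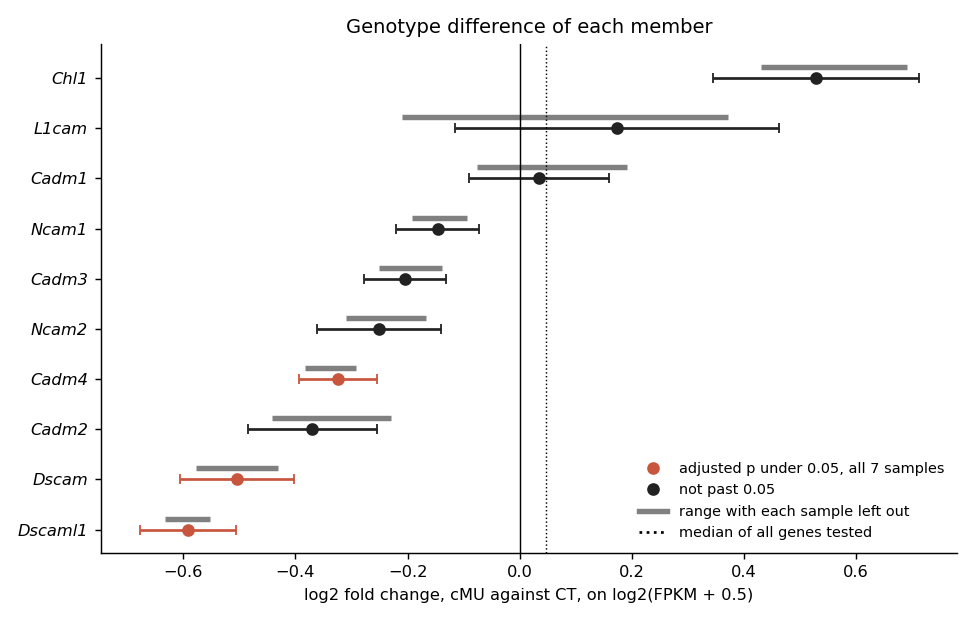
Log2 fold change of each member, cMU against CT, on log2(FPKM + 0.5) with SE bars, and as grey bars the range when each of the 7 samples is left out in turn. Dscaml1 (-0.59), Dscam (-0.50) and Cadm4 (-0.32) are in red for an adjusted p below 0.05 with all samples, the dotted line is the median of all genes tested (0.05), and only the ranges of Cadm1 and L1cam cross 0.

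Some samples were low or high for many members. In cMU, sample 1 gave the lowest FPKM for 8 of 10 members, the exceptions being Cadm4 and L1cam, and samples 2 and 3 each gave the highest for 5. In CT, sample 2 was lowest for 5 and sample 4 highest for 5. Within genotypes, deviations from the group mean ran together most for Cadm2 with Cadm3 (Pearson r = 0.93 over 7 samples, which share library preparation and depth) and least for Cadm4 with L1cam (r = -0.14), as the ends of the range over 45 pairs.

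The 3 called members were also matched with the genes whose log2 levels followed theirs most closely over the 7 samples, as a description in which the genotype difference itself takes part. For Cadm4 these were Fscn1, which encodes an actin bundler (r = 0.998), and Aplp1, which encodes a relative of the amyloid precursor protein (r = 0.994). For Dscam they were Clvs1, a clathrin vesicle gene (r = 0.982), and Prpf19, a splicing gene (r = 0.980). For Dscaml1 they were Cenpq, a centromere gene (r = 0.995), and Csmd2, a membrane protein gene (r = 0.994).

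Sums of cell type marker lists were also compared between the genotypes. The summed FPKM of 10 OPC markers was 303 to 323 in CT and 237 to 286 in cMU. Of these 3 were called lower in limma, and by sign 8 were lower and 2 (Cspg5 and Ptprz1) higher. Pdgfra was not called and its genotypes overlapped, at a log2 fold change of -0.14 ± 0.131. For 10 markers of newly formed OLs the sums were 1496 to 1663 and 1045 to 1286. Of these 3 were called lower, and by sign 9 were lower and 1 higher. For 10 markers of mature OLs the sums were 55487 to 63254 and 40716 to 52893, with none called lower and 1 called higher. For 10 astrocyte markers they were 3351 to 3766 and 4297 to 5156, with 4 of 10 called higher. Over all genes tested limma called 1.36% lower and 1.26% higher. None of the members belongs to these lists, and the part of cell makeup in the levels of Cadm4, Dscam, Dscaml1 and Chl1 was not tested.

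Sums of the 10 endothelial markers were 189 to 223 FPKM in CT and 234 to 262 in cMU, and those of the 10 microglia markers 309 to 374 and 347 to 393. In limma and in edgeR 0 of either list were called, 5 and 3 had an unadjusted p below 0.05, and DESeq2 called 3 and 0. The 10 meningeal fibroblast markers summed to 1976 to 2776 in CT and 2639 to 5034 in cMU, with 0 called in limma and edgeR, 7 at an unadjusted p below 0.05 and 5 called in DESeq2, and with the highest sum in cMU sample 1, the sample with the lowest values of most members. The 13 neuron markers, 12 of which were tested, and 6 tested of 8 Schwann cell markers had 0 calls in limma, edgeR and DESeq2, with 2 and 1 at an unadjusted p below 0.05. Of 8 retina and photoreceptor markers only 1 passed the filter, with sums of 1.21 to 1.67 in CT and 1.40 to 1.73 in cMU. Over all genes tested 24.4% had an unadjusted p below 0.05 in limma, and DESeq2 called 1605 genes over the whole table. No marker of any list was at 0 in all samples.

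**Figure D4:**
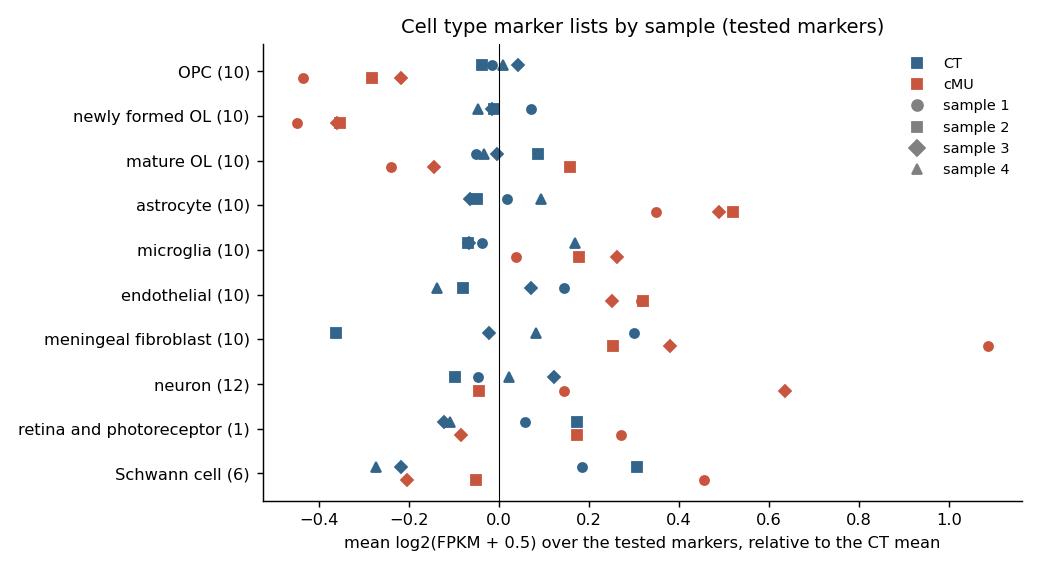
Mean log2(FPKM + 0.5) over the tested markers of 10 cell type lists, relative to the CT mean, for each CT (blue) and cMU (red) sample, with the number of tested markers in brackets. OPC and newly formed OL lists are below CT in every cMU sample, the astrocyte list is above CT in each, and the meningeal list is highest in cMU sample 1.

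Other genes of the same adhesion network were read off the whole-table fit in 5 lists of 75 genes, of which 72 were tested. Of these 1 was called higher and 2 lower, or 4.17% against 2.62% of all genes, and the median log2 fold change was 0.10 against 0.05. With the replicate number as a block 9 were called higher and 3 lower, against 890 and 269 of all genes tested in that fit. Genes called over the whole table numbered 62, 15, 6 and 6 without CT sample 1, 2 or 3 or cMU sample 3. In those fits 0 of the 72 were called, and 22 or 23 had an unadjusted p below 0.05 in limma. By sign 41 were higher and 31 lower, against 8329 and 5537 of all genes tested, and 23 of 72 had separate genotypes, against 21.1% of all genes. The 10 members, chosen as they were, are no measure against these lists.

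Among 13 tested partners and scaffold proteins of the Cadm family, 1 was called higher, 5 were higher and 8 lower by sign, and the median was -0.03. The called gene was Mpp6, a membrane scaffold of the MAGUK family, whose FPKM was 26.61, 23.8, 26.32 and 27.1 in CT and 44.17, 34.3 and 43.29 in cMU. Every cMU sample was above every CT sample, with a log2 fold change of 0.63 ± 0.0959 and adjusted p = 0.0220 in limma. Epb4.1l3, a protein 4.1 gene whose product binds Cadm4, was named for this role after its values were seen. It was at 57.4 FPKM in CT and 50.7 in cMU, with separate genotypes. Its log2 fold change of -0.18 ± 0.0758 was not called (adjusted p = 0.183 in limma).

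Among 10 tested relatives of contactins and L1, 1 was called lower, the signs were 5 and 5, and the median was 0.04. The called gene, Cntn1, encodes contactin 1, which works in axon to glia contact and in the OL lineage. It was at 133.5, 108.3, 119.4 and 110.4 FPKM in CT and at 65.41, 78.4 and 85.48 in cMU, with no overlap. Its log2 fold change was -0.63 ± 0.105 with adjusted p = 0.0274 in limma.

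Of 19 other adhesion molecules of the immunoglobulin superfamily, 1 was called lower, 10 were higher and 9 lower by sign, and the median was 0.03. Mag, the myelin-associated glycoprotein of the inner myelin membrane, was at 2499, 2363, 2618 and 2674 FPKM in CT and at 1890, 1941 and 1747 in cMU. The cMU mean was 73.2% of the CT mean, with a log2 fold change of -0.45 ± 0.0906 and adjusted p = 0.0437 in limma.

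Of 15 guidance receptors and ligands related to Dscam, 0 were called in limma or edgeR, 4 had an unadjusted p below 0.05 and DESeq2 called 3. By sign 11 were higher, with a median of 0.27, and 4 had separate genotypes. The smallest p was that of Flrt3, a membrane ligand of guidance receptors, at 1.84 ± 0.221 FPKM in CT and 2.76 ± 0.335 in cMU, a log2 fold change of 0.48 ± 0.122 with adjusted p = 0.0721 in limma. Among 15 modifiers and anchors of Ncam and L1, 0 were called in limma or edgeR, 10 had an unadjusted p below 0.05 and DESeq2 called 6. Of these 15, 10 were higher and 5 lower by sign, 8 had separate genotypes, and the median was 0.11. Over all genes tested 24.4% had an unadjusted p below 0.05 and 21.1% had separate genotypes. DESeq2 called 1605 genes over the whole table, against 363 in limma. These values hold as the background of both lists, which were given no test of their own. Bace1, the protease that cuts Chl1, had the smallest p there, at 144.9 ± 5.34 FPKM in CT and 119 ± 6.91 in cMU, a log2 fold change of -0.28 ± 0.0616 with adjusted p = 0.0532 in limma. St8sia2 and St8sia4, the enzymes that add polysialic acid to Ncam1, were named for their role after their values were seen, and neither was called. St8sia2 was at 1.27 FPKM in CT and 2.03 in cMU and St8sia4 at 1.71 and 2.27, each with separate genotypes, against overlapping genotypes for Ncam1 itself.

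**Figure D5:**
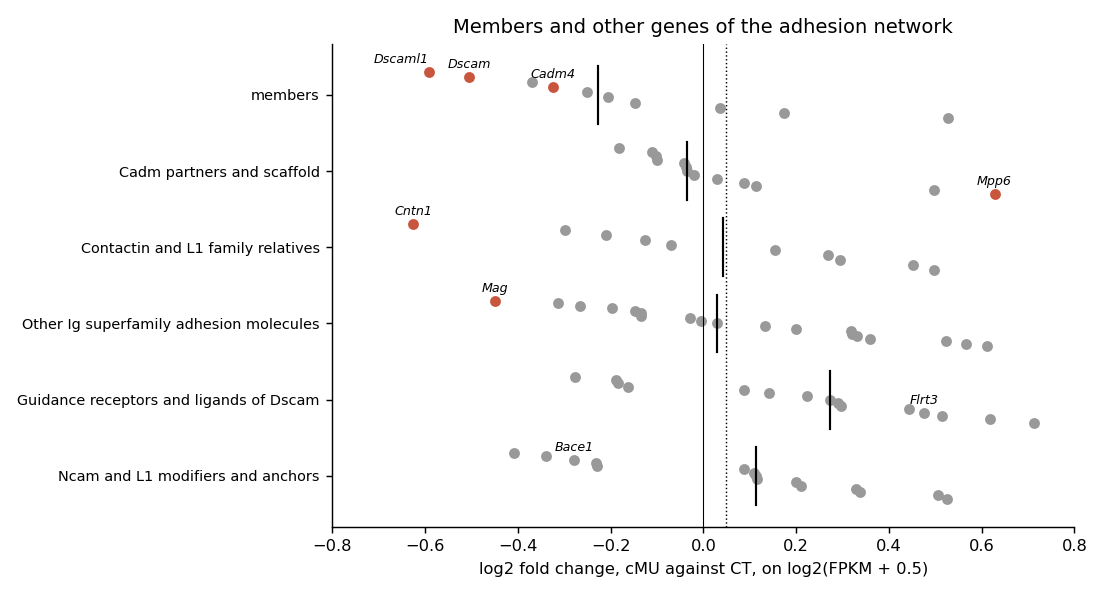
Log2 fold changes, cMU against CT, on log2(FPKM + 0.5) of the 10 members and of 72 other tested genes in 5 lists, 1 point a gene, with the list median as a black bar and the median of all genes as a dotted line. Called genes are red, and among the 72 these are Mpp6 (0.63), Cntn1 (-0.63) and Mag (-0.45).

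The members share annotations that come with their choice as adhesion molecules. All 10 carry the table's term for cell adhesion, as do 464 genes of the table, and 5 carry the one for homophilic adhesion, as do 80 genes. Although they belong to families, no stretch of 50 bases was shared between the transcripts of any members in GENCODE M21. By exact stretches of that length the members differ from each other, and other genes and pseudogenes were not compared.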

How the data were processed

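RNA of P14 optic nerves was sequenced in 4 CT and 3 cMU samples, assigned by their labels, with a stranded mRNA kit in single end mode. Per the submitters' processing notes and the methods, the authors aligned reads with STAR 2.5.1b to GRCm38, estimated gene levels with RSEM 1.2.22, and compared genotypes with edgeR. Whether counting used the strand is not given in the sources used here.

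The deposited table holds 14 columns of single samples. The authors divided estimated counts by a factor per sample, giving a normalized count (a signal per gene), and derived FPKM from them by length and depth. The GC content is deposited as a fraction. The authors' own log2 ratios and p-values, FDR and clusters are also in the table and were not used. No column of values per sample was left unused (0 columns).

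Differences were tested with limma 3.58.1 (R 4.3.3), with trend, on log2(FPKM + 0.5) for 13866 genes with at least 0.5 FPKM in at least 3 samples, with no term but genotype, adjustment by Benjamini-Hochberg over all of them, and a threshold of 0.05. Fold changes on this scale understate those of low genes. Intervals are 95% and moderated. Reads were recovered by dividing normalized counts by their most frequent step. By this, 70.1% to 77.2% of low values were whole within 0.01, and the rounded reads served for depth and for edgeR 4.0.16 and DESeq2 1.42.0 as alternatives. Data were also simulated for this contrast over 13866 genes, with the same dispersion for every gene and no shifts shared within a sample. On these the test recovered 61 of 100 genes changed by 0.5 and 99 of 100 changed by 1 on the log2 scale. Shares recovered from such data do not give the power of the test in the real samples.

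The members and lists were chosen with earlier results of these data known. Genes named were the members, Fasn, called genes of the lists or, where none was called, the one with the smallest p, the 2 genes most alike to each called member, and genes that overlap a member. Epb4.1l3, St8sia2 and St8sia4 fall outside this rule and were added for their roles after their values were seen. Coordinates are the table's, on GRCm38, and promoters are from RefSeq. Lengths and overlaps were read from GENCODE M21. Older symbols of protein 4.1 genes were matched by gene identifier.

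Samples are separate mice, and every pair of 1 genotype differed by more than sampling noise. Deviations from the group means of same-numbered CT and cMU samples had correlations of 0.168, 0.409 and 0.270 across genes. Other pairs had -0.353 to 0.205, which overlaps these. The labels do not say what the number stands for, so whether the samples are paired was not settled. An alternative fit took the number as a block, in which CT sample 4 adds nothing. A single value tested by exact permutation can reach no p below 0.0571 two-sided. Alternatives were the pseudocount, the filter, scaling, the normalized counts, robust moderation, the block, both count tests, each sample left out in turn and, added after seeing the data, another gene length.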

Additional observations from a re-analysis of the deposited data

Results flagged for a closer look

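Among genes that overlap a member, Ackr1, on the same strand as Cadm3, was at 5.89 FPKM in CT sample 1, with a gap to its nearest neighbour that took 0.846 of the CT range. Gm11149, antisense to Ncam1, was at 0.0184 FPKM in CT sample 3; with the other CT samples listed at 0 its gap is the whole range by construction, and nothing is read from it. Of 25 genes examined these 2 met the limit, and chance flags about 1 in 20 groups. The limit holds for groups of 4 samples, so only CT values were screened, and the cMU groups of 3 were not. Among the members, L1cam was at 12.32 FPKM in cMU sample 3, against 5.354 and 5.229 in cMU samples 1 and 2. Cadm2 was at 28.91 FPKM in cMU sample 1, against 38.71 and 38.94 in cMU samples 2 and 3. Whether these cMU values are outliers was not tested.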

How the results depend on the processing

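Over all 13866 genes, 363 were called (175 higher, 188 lower). Without the filter on low values 95 genes, 1 member and 0 of the listed relatives were called (27 had an unadjusted p below 0.05, and edgeR with the filter called 3). With DESeq2 1605 genes and 17 relatives were called, and Cadm2 joined the called members. TMM scaling gave 138 higher and 240 lower, median-ratio scaling 135 and 221, the normalized counts 102 and 266, and edgeR 150 and 220. When samples were left out singly, 6 (without CT sample 3 or cMU sample 3) to 909 genes (without cMU sample 2), 0 to 3 members and 0 to 10 relatives were called.

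With the replicate number as a block, 1159 genes (890 higher, 269 lower), 2 members and 12 relatives were called, and Cadm4 was lost (-0.30, adjusted p = 0.0674 in limma). The block changed no other call of a member.

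In limma 0 members were called without CT sample 1, 2 or 3 or cMU sample 3 (5 to 8 at an unadjusted p below 0.05). The whole table gave 62, 15, 6 and 6 calls in those fits. Only Dscaml1 was called without CT sample 4 or cMU sample 1, against 119 and 191 of all genes. All 3 called members stayed without cMU sample 2, against 909 of all genes. Dscaml1 was called in all 11 other alternatives, Dscam in all but the one without the filter, and Cadm4 in 6 of 11. Their log2 fold changes with 1 sample left out ran from -0.63 to -0.55 for Dscaml1, -0.58 to -0.43 for Dscam and -0.38 to -0.29 for Cadm4. The log2 fold change of Cadm1 turned to -0.013 under TMM and -0.011 under median-ratio scaling and -0.043 with normalized counts, and ran from -0.076 to 0.19 with 1 sample left out, below 0 without CT sample 2 or cMU sample 2 or 3. That of L1cam ran from -0.21 (without cMU sample 3) to 0.37. The cause was not tested. Of 180 member fold changes under alternatives, 150 kept direction and side of the threshold. With the longest coding transcript as length, 4 of 10 members kept their place in the order of CT levels.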
